A study of Homo sapiens with 2 samples.

Results

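The 33 genes described here encode the spindle assembly checkpoint, the anaphase-promoting complex (APC/C) with its activators, and the core of the SCF ubiquitin ligases. They were listed by function, with earlier results of these data known, and are 33 of 20098 protein-coding genes examined. They fall into 14 constant APC/C subunits, 14 activator and checkpoint genes and 5 SCF genes. In the second group, 10 genes (CDC20, UBE2C, UBE2S, FBXO5, MAD2L1, BUB1, BUB1B, TTK, TRIP13 and PTTG1) were listed as periodic, with expression that changes through the cell cycle. The other 4 (FZR1, MAD1L1, MAD2L1BP and BUB3) were not listed as such.

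To map the MYB-family transcription factor MYBL2 on chromatin, the study performed ChIP-seq in A673, an established Ewing sarcoma cell line. The series holds 1 MYBL2 ChIP library and 1 library of input DNA from A673 cells, which are labelled WT and carry no labelled treatment. The labels name the antibody as anti-MYBL2, whereas the methods describe it as directed at the phosphorylated, active protein. Each group had 1 library, so the values carry no replicate error, and the cell label was not set against marker genes because only peak values were analysed.

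The spindle assembly checkpoint is the surveillance system that delays anaphase until every chromosome is attached to the spindle. It does so by holding CDC20, the coactivator that lets the APC/C mark securin and cyclin B for destruction. SCF ligases use the same ubiquitin chemistry with exchangeable F-box proteins and act mainly at other stages of the cycle. MYBL2 is known to join the MuvB complex, which contacts a short promoter sequence of late cell cycle genes, the cell cycle genes homology region (CHR).

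All 33 genes carried a MYBL2 peak at a promoter, against 59.4% of protein-coding genes. A promoter was the stretch of 1000 bp either side of any annotated transcription start site (TSS), and the strongest peak there was taken for each gene. The fold enrichment of a peak is the ratio of the ChIP fragment pileup at the summit, plus 1, to the local background from the scaled input, plus 1. A fold enrichment of at least 5 was reached by 33 members and 49.6% of protein-coding genes, and one of at least 10 by 29 members and 23.1%. The members' median was 14.5 and that of all 11941 bound protein-coding genes was 8.67. Whether each gene was bound therefore did not separate the 3 groups, and the results below concern how strong the peaks were, where they lay and which sequences they held.

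The sequences under the summits are shown first, because the groups differed in the motifs they held. Each line gives the genome sequence (hg19) within 50 bp of the summit of the best promoter peak, read on the strand of the gene and ended at the thirtieth transcribed base at most. Capitals mark matches on either strand to a CHR element (TTTGAA or TTCGAA), a MYB site (CAACNG or TAACNG), the NF-Y motif searched as the letters of the CCAAT box, an E2F site (TTTCCCGC, TTTCGCGC, TTTGCCGC or TTTGGCGC) or an ETS core (CCGGAAGT). The first 4 are members with a CHR element in this window, at chr1:43824503-43824603 (CDC20), chr19:3506032-3506132 (FZR1), chr4:120987974-120988015 (MAD2L1, minus strand) and chr6:80714320-80714395 (TTK). A MYB match of MAD2L1 lies beyond the bases shown.
CDC20: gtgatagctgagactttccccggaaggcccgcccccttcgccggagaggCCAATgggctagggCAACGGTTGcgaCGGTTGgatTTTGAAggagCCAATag
FZR1: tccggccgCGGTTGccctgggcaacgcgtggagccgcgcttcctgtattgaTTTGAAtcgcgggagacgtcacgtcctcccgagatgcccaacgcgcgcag
MAD2L1: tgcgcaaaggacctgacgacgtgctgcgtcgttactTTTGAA
TTK: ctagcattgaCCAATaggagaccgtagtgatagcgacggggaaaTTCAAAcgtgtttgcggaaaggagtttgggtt

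For contrast, the constant subunits ANAPC2 (chr9:140083002-140083102, minus strand) and ANAPC5 (chr12:121790283-121790383, minus strand) and the SCF adaptor SKP1 (chr5:133512612-133512697, minus strand) are shown, which led their groups in fold enrichment. None of these windows holds a CHR element, and ANAPC5 alone among them holds a match, to the CCAAT box.
ANAPC2: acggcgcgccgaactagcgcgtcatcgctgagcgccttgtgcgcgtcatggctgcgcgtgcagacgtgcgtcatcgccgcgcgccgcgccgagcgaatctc
ANAPC5: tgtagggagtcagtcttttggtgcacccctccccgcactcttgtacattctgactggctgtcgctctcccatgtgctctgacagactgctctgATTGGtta
SKP1: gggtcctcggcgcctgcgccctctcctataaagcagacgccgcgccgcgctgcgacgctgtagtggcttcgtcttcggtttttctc

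Among the 14 constant APC/C subunits, the best promoter peaks ranged from a fold enrichment of 6.07 to 22.9 with a median of 11.7. The strongest lay at ANAPC2 (ENSG00000176248), the cullin-like subunit of the catalytic core. Its peak spanned chr9:140082796-140083562, with 101 fragments over a background of 3.45 and a fold enrichment of 22.9 (18.7 to 27.8). Ranges in parentheses after a fold enrichment are exact 95% Poisson intervals of the pileup, with the background held fixed. They cover the counting error of the ChIP pileup only and leave out that of the input. ANAPC11 (chr17:79848770-79850333), the RING subunit that partners ANAPC2, had 50 fragments and a fold enrichment of 11.5 (8.56 to 15.0). The intervals of the catalytic pair did not overlap, with the input error left out. ANAPC10 (chr4:146019060-146020091), which helps to hold substrates, had a fold enrichment of 9.78 (7.27 to 12.9).

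The scaffold subunits gave a similar spread. ANAPC5 (chr12:121789622-121790886) stood at 20.1 (16.6 to 24.2) from 113 fragments. ANAPC1 (chr2:112640891-112642505), the largest subunit, had 11.6 (8.71 to 15.1). ANAPC4 (chr4:25378741-25379296) had 10.2 (7.80 to 13.2). The ANAPC5 interval does not meet those of the other two scaffold genes.

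The arm of the complex, which binds coactivators through tetratricopeptide repeats, carried peaks between 6.07 and 12.5. CDC27 (chr17:45265928-45267095) had a fold enrichment of 12.5 (9.52 to 16.1) and ANAPC7 (chr12:110840741-110842158) one of 11.9 (9.05 to 15.3). CDC23 (chr5:137548810-137549577) followed at 9.44 (6.83 to 12.7). CDC16 (chr13:115000179-115000896) was the lowest of all 33 members, with 26 fragments and a fold enrichment of 6.07 (4.04 to 8.78). Only 25.7% of bound protein-coding genes had a weaker best peak than CDC16.

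The small subunits ranged from 8.04 to 17.1. ANAPC16 (chr10:73975534-73976152) stood at 17.1 (13.5 to 21.3), CDC26 (chr9:116037375-116038313) at 16.5 (13.9 to 19.5) and ANAPC13 (chr3:134204166-134206075) at 14.1 (11.2 to 17.6). CDC26 had the most fragments of any constant subunit, 139, over a background of 7.46, so its fold enrichment was below that of ANAPC2 despite the taller pileup. ANAPC15 (chr11:71822372-71824400), needed for release of the checkpoint complex from the APC/C, had 67 fragments over the same background of 7.46 and a fold enrichment of 8.04 (6.25 to 10.2).

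The activators and other direct partners of the APC/C had the stronger peaks, with a median fold enrichment of 19.6 over 6 genes. CDC20 (ENSG00000117399), the mitotic coactivator and the target of the checkpoint, led all members. Its peak at chr1:43823584-43824927 held 155 fragments over a background of 4.66, a fold enrichment of 27.5 (23.4 to 32.2), and 97.7% of bound protein-coding genes had a weaker one. FZR1 (ENSG00000105325), the coactivator that replaces CDC20 at mitotic exit, had 105 fragments at chr19:3505518-3506679 and a fold enrichment of 22.4 (18.4 to 27.1). The intervals of these coactivators overlap, so their order is not resolved.

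The ubiquitin-conjugating enzymes of the APC/C were close to each other. UBE2S (chr19:55918665-55920263), which extends ubiquitin chains, had 91 fragments and a fold enrichment of 20.7 (16.7 to 25.3). UBE2C (chr20:44440715-44442440), which starts them, had 104 fragments and 18.5 (15.2 to 22.4). The APC/C inhibitor FBXO5 (chr6:153303708-153306345) had 69 fragments and 15.7 (12.3 to 19.8), and its peak was the widest of the members at 2638 bp. PTTG1 (chr5:159848669-159849092), the securin that the APC/C destroys to start anaphase, had the narrowest peak, 424 bp, and the lowest fold enrichment of the 14 activator and checkpoint genes, 10.5 (7.79 to 13.8) from 48 fragments.

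Within the checkpoint itself, BUB1B stood apart. BUB1B (ENSG00000156970), which encodes the BUBR1 component of the mitotic checkpoint complex, had the tallest pileup of the members, 171 fragments at chr15:40452941-40454203 over a background of 5.60, and a fold enrichment of 26.1 (22.3 to 30.3). The other 7 checkpoint genes lay between 12.8 and 16.3, with overlapping intervals. They were the kinetochore kinase BUB1 (chr2:111435092-111436751) at 16.3 (12.9 to 20.3), its partner BUB3 (chr10:124913391-124914438) at 16.2 (12.7 to 20.3), and the kinase TTK (chr6:80713866-80714757) at 13.7 (10.5 to 17.6).

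MAD1L1 (chr7:2272143-2273326), which recruits MAD2 to kinetochores, had 110 fragments over a background of 6.53 and a fold enrichment of 14.7 (12.1 to 17.7). MAD2L1 (chr4:120987041-120989086), the MAD2 protein that captures CDC20, had 14.5 (11.4 to 18.2). TRIP13 (chr5:892131-893215), the ATPase that takes MAD2 out of its active form, had 12.8 (9.73 to 16.6). MAD2L1BP, the adaptor of TRIP13, had its best peak at chr6:43596945-43598223 with 15.1 (12.5 to 18.2), but its summit lay at -6435 bp from the canonical TSS, at an alternative start shared with the neighbour GTPBP2. The peak over the canonical MAD2L1BP start, chr6:43603216-43604051, had a fold enrichment of 10.3 from 60 fragments.

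The 5 SCF genes had a median fold enrichment of 14.2. SKP1 (ENSG00000113558), the adaptor common to all SCF ligases, led at 21.2 (17.2 to 25.8) with 95 fragments at chr5:133512151-133513131. CUL1 (chr7:148395416-148397665), the scaffold of the same core, had 50 fragments and the lowest value, 10.7 (8.001 to 14.0). The F-box proteins lay between them. SKP2 (chr5:36151850-36152933), which directs the destruction of cell cycle inhibitors, had 16.4 (12.9 to 20.6). BTRC (chr10:103113398-103114341), whose targets include the APC/C inhibitor FBXO5, had 14.2 (10.9 to 18.1). FBXW7 (chr4:153457020-153457978), which targets cyclin E and MYC, had 11.0 (8.18 to 14.5).

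**Figure D1:**
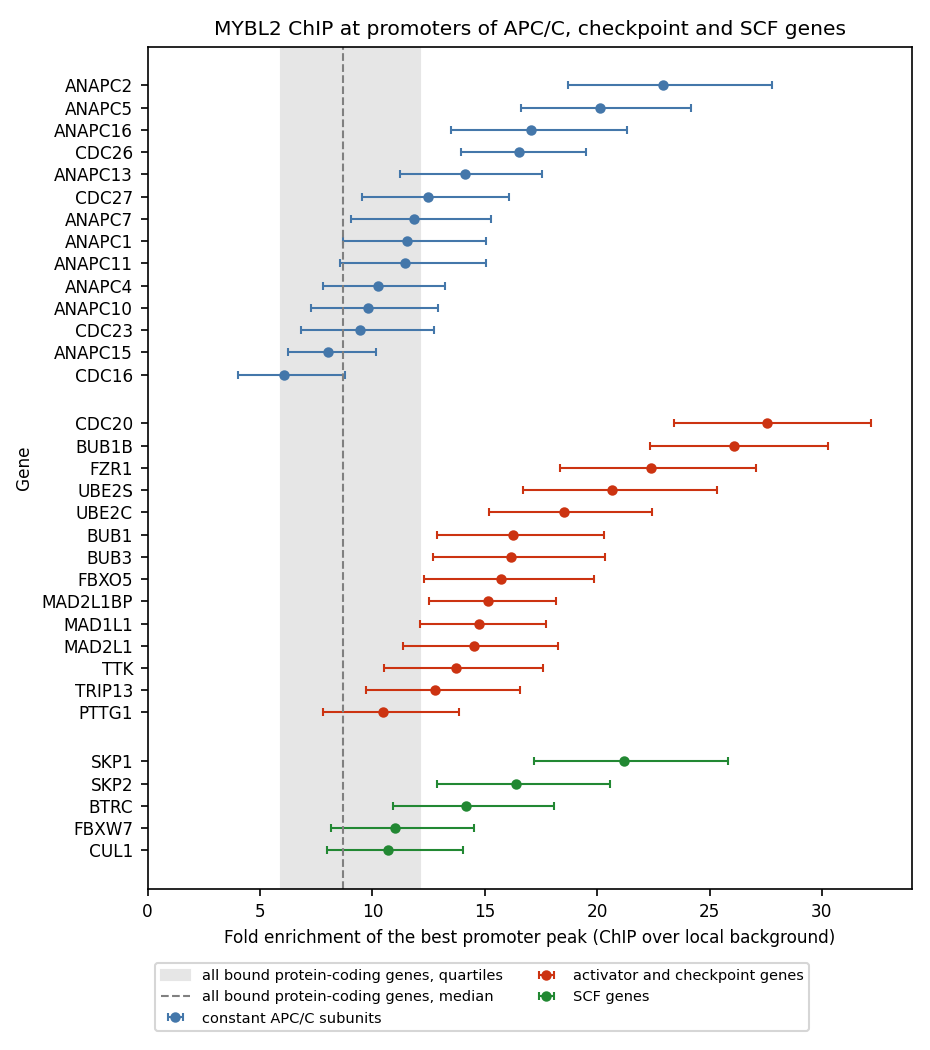
Fold enrichment of the best promoter peak (x axis) of each of the 33 genes (y axis), coloured by group, in 1 ChIP library against 1 input library. Points are the deposited values, bars are exact 95% Poisson intervals of the pileup, the dashed line is the median of all bound protein-coding genes (8.67) and the grey band spans their quartiles (5.94 to 12.1). CDC20 and BUB1B lead, and CDC16 and ANAPC15 lie left of the dashed line.

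Set against each other, the activator and checkpoint genes had the higher median, 16.0 against 11.7 for the constant subunits, a difference of 4.24. All 14 of the former and 10 of the 14 latter had a fold enrichment of at least 10. The groups overlapped widely, since 9 constant subunits lay above PTTG1, the lowest activator or checkpoint gene, and 5 lay below it. An interval that carries only the pileup counting error of the middle genes runs from -0.688 to 9.18 and includes 0. It leaves out the spread among genes and the input error, so it decides nothing about the difference. With 1 library and genes that are not replicates, the difference was not tested. Restricting the group to the 10 periodic genes left the median at 16.0, with values between 10.5 and 27.5. The 4 genes not listed as periodic had a median of 15.7 and lay between 14.7 and 22.4.

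Fragment counts gave the same order of the 3 groups, but not of the periodic genes and the others. The median pileup was 73.5 fragments for the 10 periodic genes and 107.5 for the 4 not listed as periodic. By group it was 83.5 fragments for the activator and checkpoint genes, 62 for the SCF genes and 58 for the constant subunits. It was 43 for all bound protein-coding genes. The median background was 3.73 fragments for the activator and checkpoint genes, 3.45 for the SCF genes and 3.85 for the constant subunits. The caller's lowest background, 3.45 fragments, was used at 13 of the 33 members and at 36.9% of bound protein-coding genes.

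**Figure D2:**
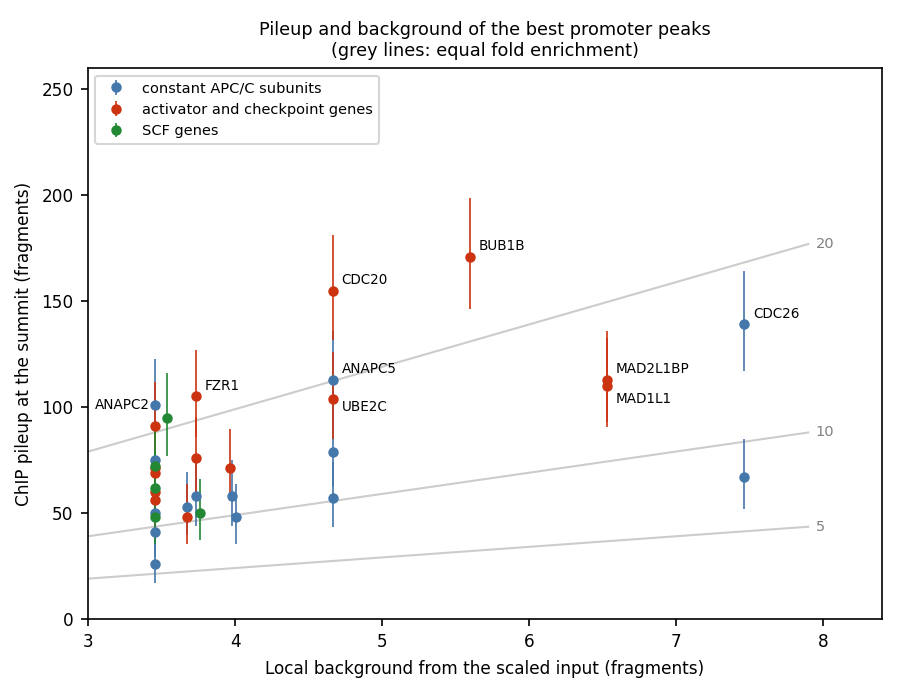
ChIP pileup at the summit (y axis, fragments, with exact 95% Poisson intervals) against the local background from the scaled input (x axis, fragments) for the best promoter peak of each gene, coloured by group, with names for pileups of at least 100. Grey lines join points of equal fold enrichment (5, 10 and 20). BUB1B, CDC20 and CDC26 have the tallest pileups, and the background of CDC26, 7.46 fragments, places it between the lines for 10 and 20.

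Most members ranked high among bound promoters. Of the 33, 31 exceeded the median of bound protein-coding genes, the exceptions being CDC16 and ANAPC15, and 22 exceeded their upper quartile of 12.1. Promoter composition was set beside this. A CpG-rich promoter, with a CpG observed/expected ratio of at least 0.6 within 500 bp of the canonical TSS, was found for 31 of 33 members and 65.9% of protein-coding genes. Of the 11941 bound protein-coding genes, 10459 had such a promoter. The median CpG ratio was 0.798 for the members and 0.790 for bound protein-coding genes. Among CpG-rich protein-coding genes 78.9% were bound, and 32.7% reached a fold enrichment of at least 10. The median fold enrichment was 8.99 for the bound CpG-rich genes and 8.67 for all bound protein-coding genes. The part of promoter composition in the members' values was not tested further.

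Other genes of these pathways had a similar median and a wider range. All 27 listed genes of the checkpoint, the APC/C substrates and the SCF machinery were bound, 20 of them with a fold enrichment of at least 10. Their median was 13.03, their quartiles were 10.3 and 17.3, and they ranged from 5.09 to 42.0. The highest were CDCA3, an F-box-like protein also destroyed by the APC/C, at 42.0 (37.1 to 47.4) from 266 fragments, the SCF exchange factor CAND1 at 35.3 (30.6 to 40.5) and the cyclin CCNA2 at 22.7 (18.8 to 27.2). CDCA3 and CAND1 therefore exceeded every one of the 33 members. A further 59 F-box genes were taken by symbol (FBXO, FBXW or FBXL and a number), leaving out the members and the 27 genes. Of these, 49 were bound, with a median of 9.30, lower than each of the F-box genes SKP2, BTRC, FBXW7 and FBXO5.

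**Figure D3:**
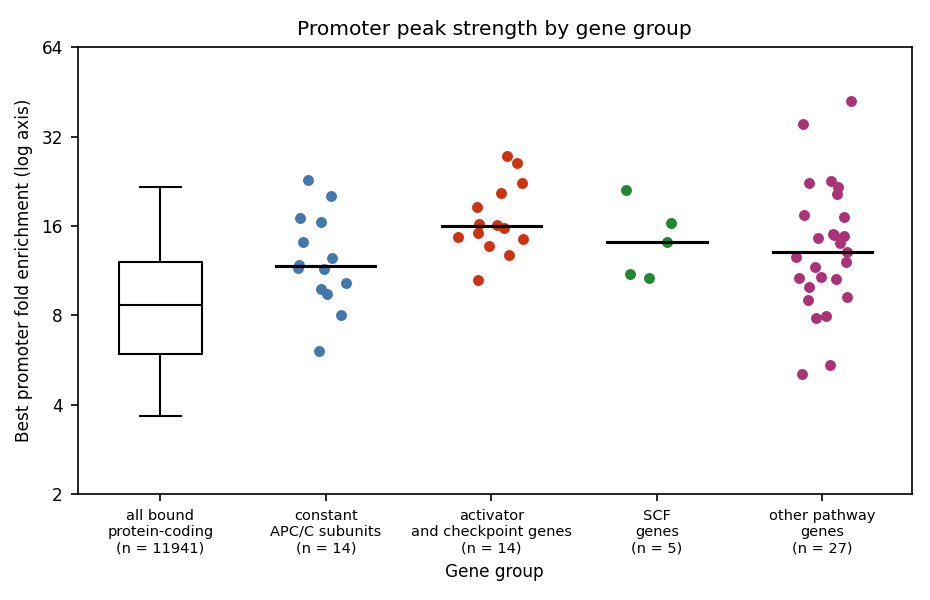
Best promoter fold enrichment (y axis, log scale) by gene group (x axis). The box shows the quartiles and median of all bound protein-coding genes with whiskers at the 5th and 95th percentiles, points are single genes and black bars are group medians (11.7 for constant subunits, 16.0 for activator and checkpoint genes, 14.2 for SCF genes and 13.03 for other pathway genes). The constant subunits spread over most of the range of the other groups.

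The CHR element separated the groups by count. It lay within 50 bp of the summit at 5 of 14 activator and checkpoint genes (CDC20, FZR1, UBE2C, MAD2L1 and TTK), 0 of 14 constant subunits and 0 of 5 SCF genes, against 3.93% of the best promoter peaks of all bound protein-coding genes. Within 100 bp of the summit the counts were 10 of 14, 0 of 14 and 0 of 5, against 7.48%. The 5 genes added by the wider window were BUB1, BUB1B, BUB3, TRIP13 and FBXO5. The 4 without a CHR element there were UBE2S, whose nearest lay at -282 bp from the summit, and PTTG1, MAD1L1 and MAD2L1BP, with none inside the peak within 300 bp. A CHR element was found within 100 bp for 8 of the 10 periodic genes and 8 of the 27 other pathway genes.

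Searching around the start site instead of the summit gave nearly the same picture. Within 100 bp of the canonical TSS a CHR element was found at 9 of 14 activator and checkpoint genes, 1 of 14 constant subunits and 0 of 5 SCF genes, against 6.75% of protein-coding genes. The constant subunit was ANAPC1, with a CHR element at 37 bp from the TSS and 118 bp from the summit. FZR1 left the count because its CHR element lay at -226 bp from the TSS, and the peak summit lay beside it at -227 bp.

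The CHR elements outside the first windows, and that of the strong BUB1B peak in particular, are shown with 20 bases on either side and the element in capitals. They lie at chr15:40453227-40453272 (BUB1B), chr10:124913834-124913879 (BUB3), chr2:111435614-111435659 (BUB1, minus strand), chr5:892982-893027 (TRIP13) and chr6:153304191-153304236 (FBXO5, minus strand). Measured from the canonical TSS, with negative values upstream, their first bases lay at -23 bp in BUB1B, -64 bp in BUB3, 1 bp in BUB1, 3 bp in TRIP13 and -40 bp in FBXO5.
BUB1B: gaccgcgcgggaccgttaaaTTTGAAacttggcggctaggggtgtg
BUB3: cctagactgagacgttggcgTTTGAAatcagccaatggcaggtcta
BUB1: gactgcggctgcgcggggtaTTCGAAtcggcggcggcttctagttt
TRIP13: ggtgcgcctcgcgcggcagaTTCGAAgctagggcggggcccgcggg
FBXO5: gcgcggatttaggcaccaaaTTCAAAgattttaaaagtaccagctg

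A CHR element went with only slightly stronger peaks. In the activator and checkpoint group the median fold enrichment was 16.2 for the 10 genes with a CHR element within 100 bp of the summit and 14.9 for the 4 without. Over bound protein-coding genes the medians were 9.58 for 893 genes with the element and 8.64 for 11048 genes without, and neither difference was tested. The constant subunit ANAPC2, at 22.9, lay above most CHR genes. Its peak held no CHR element within 300 bp of the summit, and that peak also lay at the SSNA1 promoter.

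**Figure D4:**
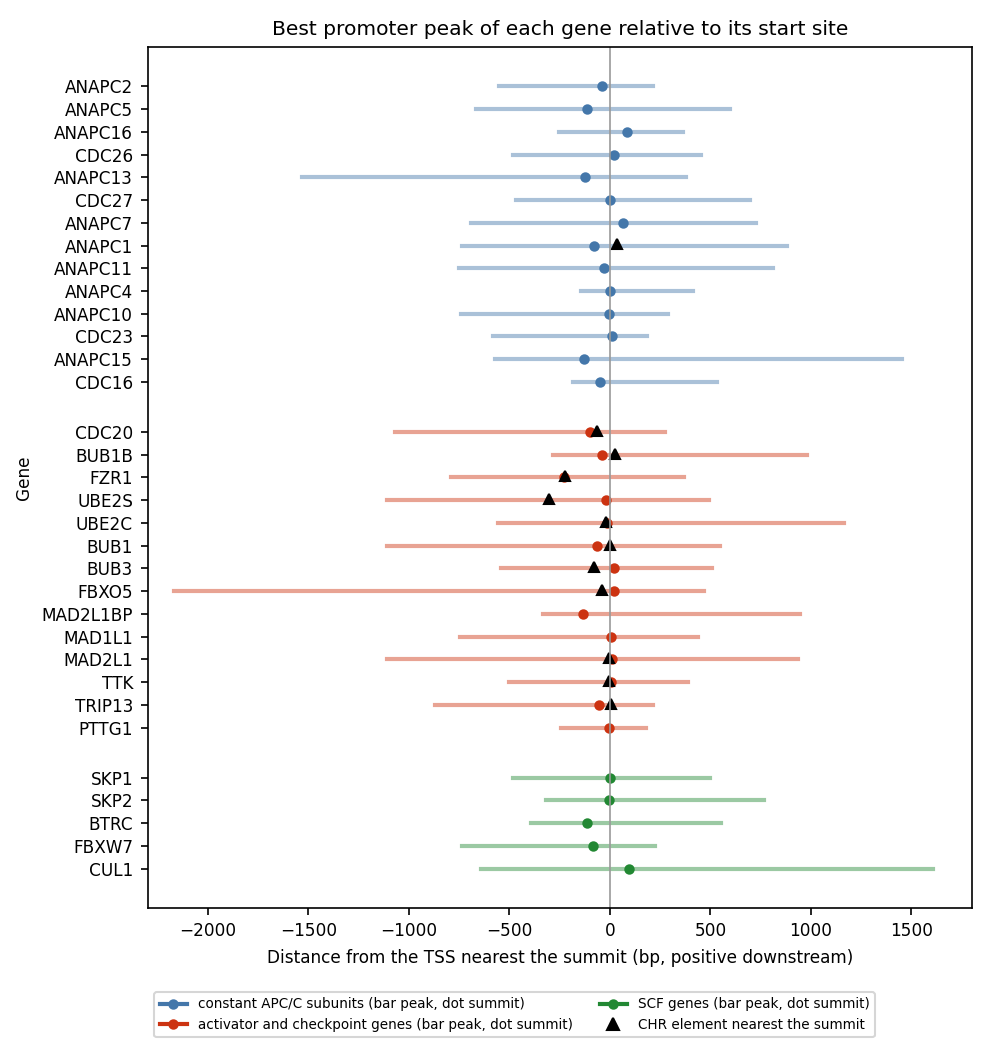
Best promoter peak of each gene (bar, peak extent and dot, summit) by distance from the TSS nearest the summit (x axis, bp, positive downstream), coloured by group, with a black triangle at the CHR element nearest the summit when one lies in the peak within 300 bp. Triangles occur in 11 activator and checkpoint genes and in ANAPC1. The FZR1 summit and its CHR element coincide upstream of the TSS.

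Other motifs were spread more evenly. A MYB site lay within 50 bp of the summit at 7 of 14 activator and checkpoint genes, 4 of 14 constant subunits and 2 of 5 SCF genes, against 17.6% of bound protein-coding genes. The CCAAT box, which binds NF-Y, was at 4, 2 and 0 genes of these groups, against 10.0%. CDC20 combined 2 CCAAT boxes, 3 MYB matches of which a pair overlap, and the CHR element within its window.

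BUB1 had 2 CCAAT boxes and a MYB site in its summit window (chr2:111435656-111435756, minus strand), with the CHR element just outside. It was chosen for display after its values were seen, as the other member with 2 CCAAT boxes.
BUB1: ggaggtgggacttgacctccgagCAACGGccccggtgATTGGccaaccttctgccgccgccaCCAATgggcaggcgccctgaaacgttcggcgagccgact

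The ETS core, the motif of the transcription factor family that includes FLI1, was at 3 summits (ANAPC4, ANAPC11 and CDC16), all of constant subunits, against 3.70%. An E2F site was at 1 summit, that of CDC16, against 1.93%. A tandem of GCGG, 4 bases and TTTGAA, the arrangement called CDE and CHR, was at 0 of the 33 summits and at 0.100% of bound protein-coding genes. Within 100 bp of the canonical TSS, a CCAAT box was found at 7 of 14 activator and checkpoint genes and 3 of 14 constant subunits, against 25.2% of protein-coding genes. A MYB site was found there at 8 genes of either group, against 31.2%. Of the 5 SCF genes, 0 had a CCAAT box there and 1 had a MYB site. The ETS core was found there at 2 constant subunits and 1 activator or checkpoint gene, against 5.11%, and the E2F site at 1 constant subunit and 1 SCF gene, against 2.84%. The windows are short and the motifs are loose, so a match describes the sequence and does not show what was bound.

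**Figure D5:**
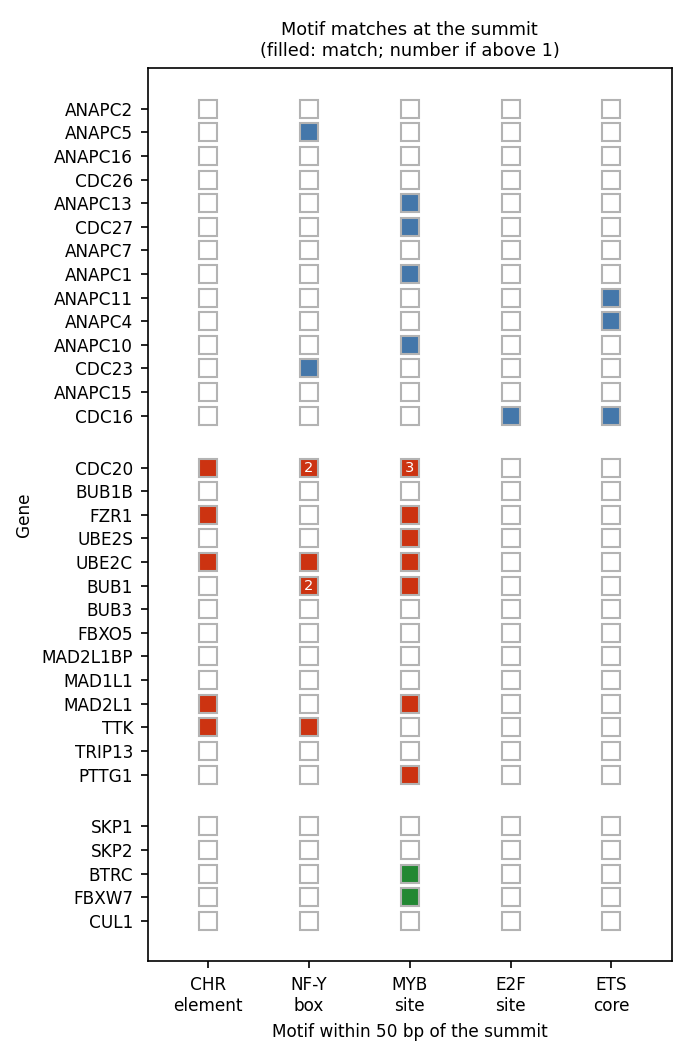
Motif matches within 50 bp of the summit of the best promoter peak (columns) for each gene (rows). Filled squares mark a match in the colour of the group (blue, constant APC/C subunits, red, activator and checkpoint genes, green, SCF genes), and a number gives the count when above 1. The CHR column is filled only in the activator and checkpoint block, at 5 genes, and the ETS column only in the constant block, at 3.

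Several peaks could not be given to a single gene. The best peak of 10 members also lay at the promoter of another protein-coding gene, against 30.7% of bound protein-coding genes, and that of 6 further members at a lncRNA promoter only, against 18.5%. Of the constant subunits 6 of 14 shared their peak in this way, namely ANAPC2 with SSNA1, ANAPC10 with ABCE1 and a gene known only as ENSG00000285713, ANAPC11 with ALYREF, ANAPC13 with CEP63, ANAPC16 with ASCC1 and CDC26 with PRPF4. In the activator and checkpoint group 3 of 14 did so, PTTG1 with SLU7, MAD2L1BP with GTPBP2 and TRIP13 with BRD9, and in the SCF group SKP2 with LMBRD2.

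Among the constant subunits, shared peaks had the higher median fold enrichment, 15.3 with a protein-coding neighbour and 10.9 without. The values overlapped, since the unshared ANAPC5 peak had 20.1 and the shared ANAPC10 peak 9.78. Over all bound protein-coding genes the medians were 10.3 and 7.94. In the activator and checkpoint group the order was the other way, with 12.8 for the 3 shared peaks and 16.3 for the 11 others. When only peaks at no other protein-coding promoter were counted, 9 of 14 constant subunits, 13 of 14 activator and checkpoint genes and 9152 of 20098 protein-coding genes kept a promoter peak. The medians were then 10.2, 16.2 and 7.59, and the difference between the first 2 groups was 5.94. The 9 constant subunits included ANAPC2, which shares its best peak, through a second peak with a fold enrichment of 3.17. Likewise, the 13 activator and checkpoint genes included TRIP13 through a second peak at 3.59, and MAD2L1BP through a peak other than its best one.

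Summits sat close to start sites. They lay within 100 bp of the nearest TSS at 27 of 33 members, against 58.6% of bound protein-coding genes. The median distance was 46 bp for constant subunits, 21.5 bp for activator and checkpoint genes, 85 bp for SCF genes and 73 bp for all bound protein-coding genes. FZR1 had the most distant summit, at -227 bp. The 33 summit windows each occurred exactly once in the genome assembly.

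Several genes held more than 1 peak in their promoter windows, which surround every annotated start site. At least 3 peaks were found in these windows for 14 members, against 20.8% of bound protein-coding genes. The median was 3 for the activator and checkpoint genes, 3 for the SCF genes and 1.5 for the constant subunits. It was 1 for all bound protein-coding genes. Some extra peaks lay far inside the gene, as in FBXW7 at 183448 and 187308 bp from the canonical TSS. Others lay near it, as in SKP2 at 1225 and -936 bp. BUB1B had the most, 6, and it has 10 annotated start sites. FBXO5 and ANAPC7 had 5 each, with 3 and 12 annotated start sites.

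Away from their own promoters, 21 of 33 members overlapped 85 further peaks, with a median fold enrichment of 3.43, and 53.96% of bound protein-coding genes had such a peak. Any overlap with the gene counted, so a summit could lie past its end. They came to 3.86 per 100 kb over the members and 4.18 per 100 kb over all bound protein-coding genes. CUL1 held 16, BUB1B and SKP2 held 12 each and FBXO5 held 8. Only 10 of the 85 reached a fold enrichment of 5. At another gene's promoter lay 2 of the 85, among them a peak at the end of CDC20 and the promoter of ELOVL1, with 8.56.

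At BTRC and CUL1 an internal peak exceeded the promoter peak. The BTRC peak at chr10:103245727-103246317, in the fourth intron of the canonical transcript and 132031 bp downstream of its TSS, held 111 fragments and a fold enrichment of 21.2 (17.5 to 25.5), against 14.2 (10.9 to 18.1) at the promoter. It lay at no annotated promoter, and its interval overlaps that of the promoter peak. Its summit window (chr10:103245903-103246003), shown because the peak was the strongest inside any member, held a MYB site and a CCAAT box.
BTRC: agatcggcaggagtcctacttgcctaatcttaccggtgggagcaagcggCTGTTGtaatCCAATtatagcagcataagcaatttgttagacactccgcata

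The CUL1 peak, in the ninth intron at chr7:148469753-148470993, had 61 fragments and a fold enrichment of 12.9 (9.88 to 16.4), against 10.7 (8.001 to 14.0) at the promoter, a difference within counting error. Both internal peaks were in sequence with a low CpG ratio, 0.495 within 500 bp of the BTRC summit and 0.331 at CUL1, whereas the promoters of these genes had 0.774 and 0.966.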

How the data were processed

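The authors aligned single-end reads of 100 bp to hg19 and called narrow peaks against the input. The submitters' processing notes name Bowtie2 2.1.10 and MACS2 2.0.10. A cleaning of the list is named, and what it took out is not given in the sources used here. The deposited table lists 66954 peaks with the authors' score, fold enrichment (a linear ratio), −log10 p, −log10 q and summit offset (another deposited number, in bp). No column held the authors' comparisons between groups.

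Pileup and background were recovered from the deposited fold and −log10 p values, as the whole number that met both to within 3.49e-05 (the neighbouring whole number missed by 0.038 or more). The whole list had a median pileup of 20 fragments and 0 peaks beyond a chromosome end of GRCh37. Library totals were not analysed here, so depth is given as pileups. Genes were GENCODE genes lifted to GRCh37 on chromosomes 1 to 22 and X, and a canonical transcript was found for 19819 of the 20098 protein-coding genes. An overlap of at least 1 bp placed a peak at a promoter. Intervals cover the counting error of the pileup only, with the background held fixed. Duplicate reads are not independent molecules. Sequences came from the GRCh37 assembly. They were cut at 30 transcribed bases of the canonical transcript, and the window of ANAPC16, which is wholly transcribed, is not shown. The sequence of UBE2C is not reported here.

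The members, gene lists, motifs and alternatives were chosen with earlier results of these data known. By the rule for naming, all members are given, sequences are those of members with a CHR element at the summit, of the leading constant subunits and of the leading SCF gene, and of the 27 other pathway genes the leading 3. The CHR search around the TSS, the CHR search within 300 bp, the sequences of BUB1, BUB1B, BUB3, TRIP13, FBXO5 and the BTRC intron, the pileup medians, the CpG comparison and the internal peaks were chosen after seeing the data. No test was made, as each group had 1 library. Scripts ran in Python 3.11.15 with numpy 2.4.6, pandas 2.3.3 and scipy 1.17.1, and pileup recovery, overlaps and motif searches were tested on simulated data.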

Additional observations from a re-analysis of the deposited data

How the results depend on the processing

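No paired analysis was possible because there was 1 ChIP library and 1 input library. Alternatives were stricter peak thresholds, other promoter windows, the summit in the window, the outermost TSS, ranking by −log10 q, peaks at no other protein-coding promoter, periodic genes only and other motif windows. Of the alternative values, 75 stayed within 1.5 times the main count or within the counting interval of the main value. Part of this was fixed in advance. Every member's best peak had a fold enrichment of at least 6.07 and a −log10 q of at least 12.2, above the stricter thresholds of 5. No member was unbound, so counting unbound genes at 1 changed nothing. For the difference between group medians the interval, -0.688 to 9.18, was wide and includes 0. The other 5 were 9 constant subunits with a promoter peak when shared peaks were left out, 10 activator and checkpoint genes with a CHR element within 100 bp of the summit, 9 of these and 1 constant subunit within 100 bp of the canonical TSS (an alternative chosen after seeing the data), and 10 members sharing a peak when only protein-coding neighbours counted. These follow from fewer peaks, a wider or moved window and fewer neighbours. Depth limits single genes, since 26 fragments at CDC16 allow a fold enrichment from 4.04 to 8.78.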
